A study of Mus musculus with 96 samples.

Results

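H3K4me3 peaks that carried neither H3K27ac nor RING1B were examined in mouse ESCs. The peaks were taken from the list of H3K4me3 peaks called in Rybp+/+ ESCs, and a peak was kept when it shared no base with any H3K27ac peak of the same ESCs nor with any RING1B peak of shEV ESCs. The RING1B list reaches down to a -log10 q of 1.04, with 8.72% of its peaks under 2, against 1.34 and 1.19% in the H3K4me3 list, so weaker RING1B calls also kept a peak out. Of 39050 H3K4me3 peaks, 11752 (30.1%) met this rule. A further 13152 peaks overlapped H3K27ac only, 6762 RING1B only, and 7384 both. The members were thus chosen by the presence of H3K4me3 and the absence of H3K27ac and RING1B in those lists, and these properties are no result. Lists that the rule did not use gave a partial check of the name, since 11.7% of the members overlapped an H3K27ac peak of Rybp-/- ESCs (95% Wilson interval 11.1 to 12.3%) and 2.94% a RING1B peak of shStat3 ESCs (2.65 to 3.26%). The RING1B lists of Tet.Rybp.Stat3 ESCs without and with DOX covered 9.87% and 6.18% of the members. Among peaks with RING1B only, the same lists covered 90.8% and 87.3%.

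The study profiled ESCs in which RYBP, WDR5 or STAT3 was removed, mutated or raised, by ChIP-seq and RNA-seq. H3K4me3, H3K27ac, WDR5 and STAT3 were mapped in Rybp-floxed ESCs of the R7.15 line, where Rybp-/- ESCs had received 5 µM 4-hydroxytamoxifen (4-OHT) for 4 days to excise Rybp and Rybp+/+ ESCs were the control. RING1B was mapped in R1 ESCs with the empty vector (shEV) or an shRNA against Stat3 (shStat3), and RING1B and STAT3 were mapped in R1 ESCs with a DOX-induced Rybp_Stat3 integration (Tet.Rybp.Stat3), with and without DOX. RNA-seq compared 7 pairs of groups with 2 libraries each. They were Rybp-/- with Rybp+/+ ESCs, shRybp and shWdr5 with shEV in R1 ESCs, R1 ESCs labelled TF-AA mutation with WT ESCs, RYBPfl/fl Rosa26::CreERT2 R7.15 ESCs that carried a RYBP.21aa deletion (labelled RYBP phase disruption) with those that carried WT.RYBP, J1 Tet.RYBP ESCs with DOX or vehicle, and rTRS ESCs (DOX-induced Rybp_Stat3 integration) with DOX or without (NTC). The phase disruption libraries came from cells treated with 4-OHT and the RING1B list used by the rule came from another ESC line than the H3K4me3 list. Nothing in the labels says that the 2 libraries of a group were separate cultures, so p-values measure the spread between these libraries, which may be technical.

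H3K4me3 is deposited at the start of genes by MLL and SET1 complexes, of which WDR5 is a shared subunit. Active promoters and enhancers also carry H3K27ac, while RING1B, the catalytic subunit of PRC1, sits with H3K4me3 at the silent developmental promoters known as bivalent domains. LINE-1 elements are retrotransposons, and the full-length mouse copies start with tandem repeats that hold their promoter, followed by 1 short and 1 long reading frame.

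The sequences below show a feature of a set of the members that the rule did not use, and members without it. The 16-mer AATTAGTCTGAACAGG was the commonest 16-base word among the members outside simple repeats, searched on both strands, and stood in 1404 of them. The strongest members that hold it in front of both long reading frames are shown first, with the 16-mer in capitals and 90 bases to either side, read along the strand of the element (mm9 reference genome). Member 1 lies in Fgfr2 on the + strand, chr7:138630925-138631120, outside exons, member 2 in Mrc1 on the - strand, chr2:14210345-14210540, outside exons, and member 3 outside annotated genes on the - strand, chr4:12253095-12253290.
LINE-1 anchor 1 member 1: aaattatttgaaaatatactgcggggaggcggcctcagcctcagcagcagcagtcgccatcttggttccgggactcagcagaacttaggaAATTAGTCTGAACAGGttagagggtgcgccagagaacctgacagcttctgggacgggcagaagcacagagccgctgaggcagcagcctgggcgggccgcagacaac
LINE-1 anchor 1 member 2: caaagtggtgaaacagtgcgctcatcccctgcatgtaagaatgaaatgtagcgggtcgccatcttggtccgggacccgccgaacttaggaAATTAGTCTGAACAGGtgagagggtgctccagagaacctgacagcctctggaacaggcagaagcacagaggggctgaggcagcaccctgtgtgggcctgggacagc
LINE-1 anchor 1 member 3: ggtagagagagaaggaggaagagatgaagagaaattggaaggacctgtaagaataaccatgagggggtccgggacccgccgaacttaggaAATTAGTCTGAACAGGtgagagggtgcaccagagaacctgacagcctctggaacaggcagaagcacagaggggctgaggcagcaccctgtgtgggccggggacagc
Over the 106 bases from the first base of the 16-mer to the end of the window, member 2 and member 3 had the same base at 104 positions, while member 1 matched them at 92 and 93. Another pair of words was counted only in members that lack the first, although the second of the pair also stands in members 2 and 3. CCACCTTCCTGGTGAG stands in the strongest member of this kind at chr1:116705702-116705897 on the - strand, and GCTGAGGCAGCACCCT at chr12:78876360-78876555 on the - strand, both outside annotated genes.
LINE-1 anchor 3 member 1: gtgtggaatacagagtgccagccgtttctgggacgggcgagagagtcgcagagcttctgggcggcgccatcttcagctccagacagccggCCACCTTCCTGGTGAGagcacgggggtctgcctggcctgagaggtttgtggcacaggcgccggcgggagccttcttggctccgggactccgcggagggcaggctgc
LINE-1 anchor 6 member 1: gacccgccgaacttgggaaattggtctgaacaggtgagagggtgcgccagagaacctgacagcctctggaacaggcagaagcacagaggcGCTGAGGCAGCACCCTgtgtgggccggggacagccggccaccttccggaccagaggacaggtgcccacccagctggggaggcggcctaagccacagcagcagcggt
The strongest members whose central 300 bases touch no annotated exon are given for contrast, on the + strand with each CpG in capitals. They lie in Esyt2 (chr12:117520389-117520688), in Rabl2 (chr15:89421916-89422215) and in 9430091E24Rik (chr8:113668705-113669004).
Esyt2 member: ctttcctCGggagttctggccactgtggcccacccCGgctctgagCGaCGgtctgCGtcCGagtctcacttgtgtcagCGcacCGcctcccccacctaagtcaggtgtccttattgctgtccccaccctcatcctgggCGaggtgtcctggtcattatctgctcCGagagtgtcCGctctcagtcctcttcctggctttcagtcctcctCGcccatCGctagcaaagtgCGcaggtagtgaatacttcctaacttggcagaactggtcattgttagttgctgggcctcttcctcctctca
Rabl2 member: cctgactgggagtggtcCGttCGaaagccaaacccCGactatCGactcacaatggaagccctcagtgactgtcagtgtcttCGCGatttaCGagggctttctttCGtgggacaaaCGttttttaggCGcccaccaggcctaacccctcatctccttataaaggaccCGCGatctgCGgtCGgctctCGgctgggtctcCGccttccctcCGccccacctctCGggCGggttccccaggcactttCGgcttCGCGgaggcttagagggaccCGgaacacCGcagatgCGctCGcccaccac
9430091E24Rik member: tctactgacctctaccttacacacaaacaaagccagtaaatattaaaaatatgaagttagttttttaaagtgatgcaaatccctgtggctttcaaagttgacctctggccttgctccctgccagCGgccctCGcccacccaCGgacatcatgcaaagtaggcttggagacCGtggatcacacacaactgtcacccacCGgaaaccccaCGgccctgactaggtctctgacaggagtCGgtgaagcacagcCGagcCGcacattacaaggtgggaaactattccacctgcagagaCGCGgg
These 3 windows hold 14, 26 and 11 CpGs and had fold enrichments of 34.1, 33.7 and 33.1.

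The members were weak and narrow peaks. Fold enrichment, the authors' ratio of H3K4me3 reads over background at the summit, had a median of 4.56 among the members (1.62 to 45.1), against 6.15 for peaks with H3K27ac only, 14.4 for RING1B only and 37.7 for both. Their median width was 481 bp (243 to 3931 bp), against 999 bp, 1511.5 bp and 2703.5 bp, and together they covered 6.86 Mb. The -log10 of the authors' q value had a median of 8.31 and a lowest value of 1.34. The rule keeps the members apart from H3K27ac and RING1B, and as a description their median distance was 19501 bp to the nearest H3K27ac peak, against 33831 bp for peaks with RING1B only, and 33454 bp to the nearest RING1B peak, against 22326 bp for peaks with H3K27ac only. At the edge of the rule, 102 members lay within 100 bp of an H3K27ac or RING1B peak and 177 other H3K4me3 peaks shared 100 bp or less with one, and both sets had a median fold enrichment of 3.53. The authors called most lists on the merged replicates of a group. RING1B in shEV and shStat3 ESCs and STAT3 in Rybp+/+ and Rybp-/- ESCs were called on 1 library each. The lists thus hold no replicate error, and their sequencing depth was not considered here. Intervals on shares of peaks cover counting error only.

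Most members lay away from annotated promoters. A transcription start site (TSS) lay inside 1106 members (9.41%, 8.90 to 9.95%), against 32.0% of the peaks with H3K27ac only, 51.3% with RING1B only and 85.3% with both. The difference from the H3K27ac class was -22.6 percentage points (95% Newcombe interval -23.5 to -21.6). Within 1 kb of a TSS lay 17.1% of the members, and the summit of 55.9% was inside a gene and of 19.8% inside an exon. The gap was smaller between peaks of like strength. When the other classes were given the members' mixture of deciles of fold enrichment, the share within 1 kb of a TSS was 18.4% for H3K27ac only, 26.6% for RING1B only and 23.3% for both. GC content over 300 bases at the summit had a median of 55.0% in the members, 54.7% with H3K27ac only, 63.7% with RING1B only and 69.3% with both. CpG density was 3.00 per 100 bases in the members, 2.67 with H3K27ac only, 6.67 with RING1B only and 9.67 with both.

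WDR5 was nearly absent from the members. A WDR5 peak of Rybp+/+ ESCs overlapped 163 members (1.39%, 1.19 to 1.61%), against 23.7% of the peaks with H3K27ac only, 22.1% with RING1B only and 79.0% with both. The difference from RING1B only was -20.7 percentage points (-21.7 to -19.7). The order of the members was kept at matched strength, where the other classes reached 3.99%, 3.46% and 10.8%. Among members with a TSS inside, 6.60% had WDR5 (5.28 to 8.22%), and among those not within 1 kb of a TSS 0.852% (0.688 to 1.05%). In Rybp-/- ESCs a WDR5 peak overlapped 2.00% of the members (1.76 to 2.27%).

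STAT3, a transcription factor that keeps ESCs undifferentiated in response to LIF, showed peaks at the members almost only in Tet.Rybp.Stat3 ESCs with DOX. The shares of members with a STAT3 peak were 0.477% in Rybp+/+ ESCs, 0.357% in Rybp-/- ESCs and 0.196% in Tet.Rybp.Stat3 ESCs without DOX. With DOX the share was 19.2% (18.5 to 19.9%), against 29.4% with H3K27ac only, 84.6% with RING1B only and 93.4% with both. The list with DOX held 30663 peaks and the list without DOX 2816, and the part of that difference in the shares was not tested. At matched strength the members had 19.2% and peaks with H3K27ac only 16.6%, so the order of these classes was reversed, while RING1B only and both stayed at 62.7% and 66.5%.

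**Figure D1:**
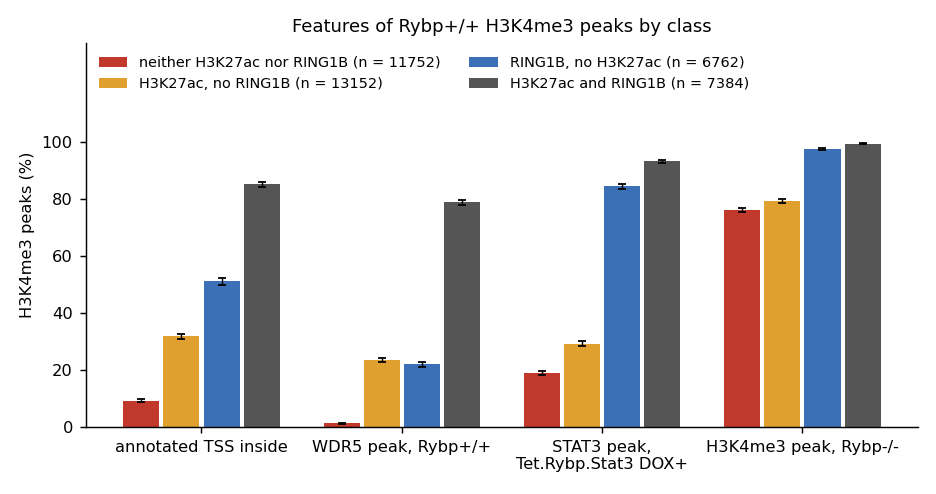
Share of Rybp+/+ H3K4me3 peaks (%) with an annotated TSS inside, a WDR5 peak in Rybp+/+ ESCs, a STAT3 peak in Tet.Rybp.Stat3 ESCs with DOX, or an H3K4me3 peak in Rybp-/- ESCs, by class of peak. Bars are shares and lines 95% Wilson intervals, and the members have the lowest share of every feature plotted, with 9.41%, 1.39%, 19.2% and 76.3%.

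In Rybp-/- ESCs, an H3K4me3 peak was called over 8970 of the 11752 members (76.3%, 75.6 to 77.1%) and 2782 members had none. The share was 79.6% for H3K27ac only, 97.6% for RING1B only and 99.5% for both. The share rose with peak strength. Among the weakest decile of all H3K4me3 peaks, 51.4% of the members were found again, in the fifth decile 96.2%, and in the seventh all 447. At the members' mixture of deciles the share was 71.2% for H3K27ac only, under that of the members, 89.9% for RING1B only and 87.4% for both. The 8970 members present in both lists had a median fold enrichment of 5.17 in Rybp+/+ and 5.38 in Rybp-/- ESCs. The Rybp-/- value is that of the overlapping peak with the highest fold enrichment, which can raise it. Over all H3K4me3 peaks present in both lists the medians were 10.1 and 10.7. By rank within each list, 49.9% of these members stood lower in Rybp-/- ESCs. When the rule was applied to the H3K4me3 and H3K27ac lists of Rybp-/- ESCs with the same shEV RING1B list, 10990 of 38013 H3K4me3 peaks (28.9%) met it, of which 7636 lay over a member and 2441 over no H3K4me3 peak of Rybp+/+ ESCs. No test between the genotypes was possible from single lists.

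**Figure D2:**
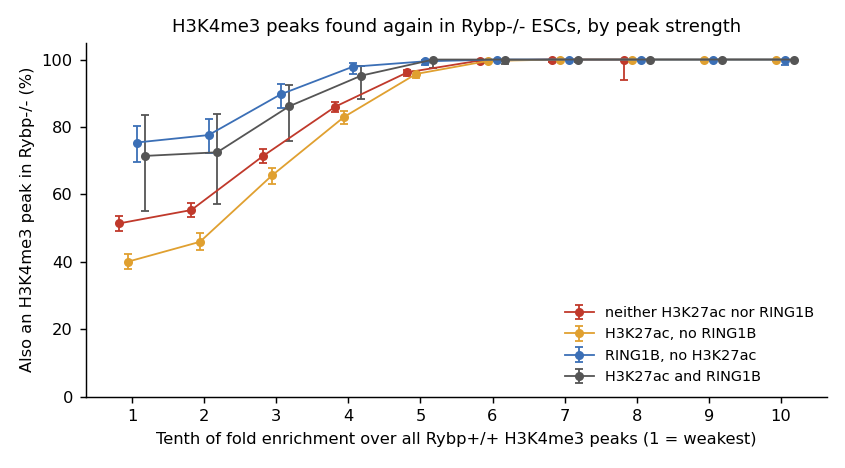
Share of Rybp+/+ H3K4me3 peaks (%) that overlap an H3K4me3 peak in Rybp-/- ESCs, by decile of fold enrichment over all Rybp+/+ H3K4me3 peaks (1 is the weakest) and class of peak. Points are shares and lines 95% Wilson intervals, and members rise from 51.4% in the weakest decile to 96.2% in the fifth.

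A set of the members coincided with LINE-1-like sequence. The summits of 9.16% of the members (8.65 to 9.69%) stood in sequence whose 16-base words occur 50 times or more in the genome, against 1.62% of peaks with H3K27ac only, 0.399% with RING1B only and 0.122% with both. In windows of the same length 5 kb away the shares were 17.8%, 8.81%, 5.43% and 7.64%. The word AATTAGTCTGAACAGG stood in 11.9% of the members, in 1.57% of peaks with H3K27ac only, 0.251% with RING1B only and 0.0948% with both. In the 300-base windows at the summit it stood in 11.2% of the members and 3.88% of all H3K4me3 peaks. The word was picked because it was common in the members, so these shares are a description. Of the 1404 members that hold it, 830 were followed within 8 kb by an open reading frame of at least 3810 bases. This frame had exactly 1281 codons in 802 of them, and a shorter frame in front of it had 371 codons in 760. CCACCTTCCTGGTGAG was found in 256 further members that hold no commoner word, simple repeats included, in 126 of which the long frame also had 1281 codons while the short frame most often had 385, and GCTGAGGCAGCACCCT in 124 more counted in the same way. Another word outside simple repeats stood in 149 further members counted in the same way, but the long frame followed it in only 5 (3.36%). It was left out, because a word was kept only when the long frame followed it in at least 25% of such members. Its members count as LINE-1-like only where they also hold a kept word. No repeat annotation was used, so members and elements that hold the kept words are called LINE-1-like after those followed by the frames, whether or not their own frames are open, and no family is named.

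Together, 1794 members (15.3%, 14.6 to 15.9%) held AATTAGTCTGAACAGG (1404) or, without it, CCACCTTCCTGGTGAG (262) or, without both, GCTGAGGCAGCACCCT (128). A match is a description of the sequence and not of a bound factor. LINE-1-like members were narrower than the other 9958 members, at a median of 409.5 bp and not 502 bp, and had a higher fold enrichment, with a median of 5.88 against 4.30. They lay farther from H3K27ac, with a median of 160386 bp to the nearest H3K27ac peak against 14243.5 bp. Of their summits, 24.6% lay inside a gene against 61.6%. No annotated TSS lay in any of them, which allows a share of up to 0.214% (Wilson). None overlapped a WDR5 peak of either genotype, and STAT3 with DOX covered 1.34% of them against 22.4% of the other members. An H3K4me3 peak was found again in Rybp-/- ESCs over 88.1% of the LINE-1-like members and 74.2% of the others, a difference of 13.9 percentage points (12.1 to 15.6). Within deciles of fold enrichment the gap was not of 1 sign, with 67.9% of 28 LINE-1-like members and 51.2% of the others in the weakest decile, 63.0% and 55.0% in the second, 70.4% and 71.6% in the third, 84.3% and 86.6% in the fourth and 96.7% and 96.0% in the fifth, and the intervals overlapped in each of these.

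The other deposited lists held few such peaks. Any of the 3 words stood in 5.25% of the Rybp+/+ and 5.35% of the Rybp-/- H3K4me3 peaks, in 0.376% and 0.418% of the H3K27ac peaks in the same genotypes, in 0.250% of the shEV RING1B peaks, in 0.157% of the STAT3 peaks with DOX and in 0 of 11965 and 0 of 12946 WDR5 peaks. Reads from such repeated sequence match many places. The authors' methods name Bowtie2 with end-to-end alignment for ChIP reads, and their text states no rule for reads with several positions. The part of such reads in these counts was not tested.

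Every place in the genome where AATTAGTCTGAACAGG occurs was then examined, whether or not it carried a peak. The 8449 matches fell into 3739 elements, and neighbouring matches were most often 212 bp apart (3489 of 4710 distances, with 98.0% between 150 and 250 bp), the spacing of tandem repeats. Both frames were open (at least 3810 and 1020 bases) in 1633 elements (43.7%), with the long frame at 1281 codons in 1588 and the short frame at 371 in 1565. In those elements the last 16-mer lay a median of 502 bp before the short frame. An H3K4me3 peak covered 1404 elements in both genotypes, 188 in Rybp+/+ ESCs only and 175 in Rybp-/- ESCs only, and 1972 had none.

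The called H3K4me3 summits lay on the side of the tandem repeats. Of 1118 summits within 10 kb of the start of the short frame, 1036 lay in the 2 kb before it and 3 in the 7 kb after it. The frames are repeated sequence too, and few called summits there need not mean little H3K4me3. The median summit within 3 kb stood at -949 bp, with quartiles of -1173 and -765 bp. These peaks include those with H3K27ac or RING1B, and 762 of the 1633 elements with open frames carried a member.

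**Figure D3:**
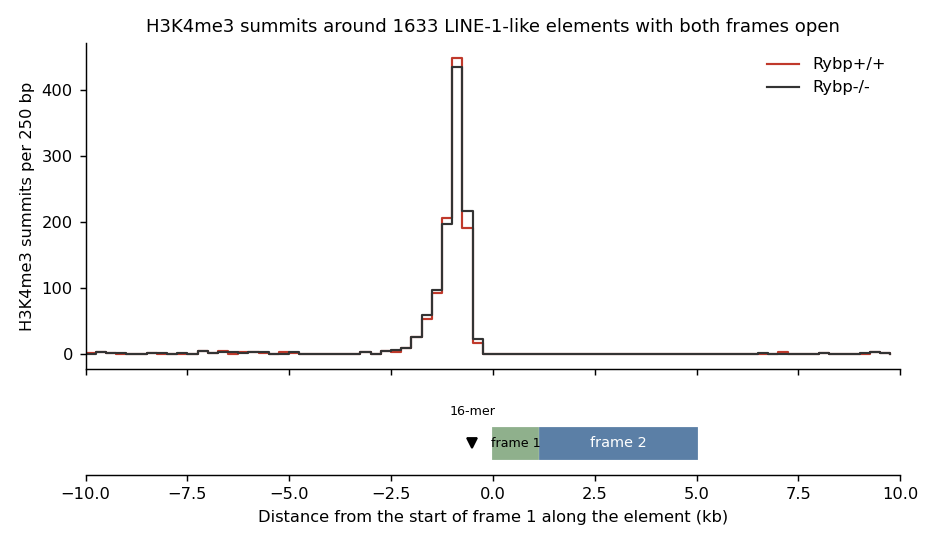
Number of H3K4me3 summits per 250 bp (upper panel) by distance in kb from the start of the short reading frame along 1633 LINE-1-like elements with both frames open, in Rybp+/+ and Rybp-/- ESCs. The lower panel maps the last 16-mer (triangle, median 502 bp before the short frame) and the frames, and 1036 of 1118 Rybp+/+ summits lie in the 2 kb before the short frame.

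The share of elements with H3K4me3 differed with the number of 16-mer matches. Overlap was counted over the stretch from the first to the last match, 16 bases for a single match and longer with more. A longer stretch meets a peak more easily, and the part of its length in these shares was not tested. In Rybp+/+ ESCs it was 9.81% of the 1489 elements with 1 match (8.40 to 11.4%), 57.5% of the 1081 with 2 matches (54.6 to 60.5%), 71.3% of the 547 with 3, 73.8% of the 302 with 4 and 65.9% of the 320 with 5 or more. Intervals of the classes with 3, 4 and 5 or more matches overlapped. Rybp-/- ESCs gave 9.47%, 56.1%, 71.7%, 72.2% and 69.4%. H3K27ac of Rybp+/+ ESCs covered 0.0672%, 2.59%, 7.86%, 15.6% and 22.8% of these elements. Members covered 9.40%, 53.7%, 62.5%, 58.6% and 46.9% of them. Elements with both frames open had H3K4me3 more often than the rest, at 54.3% (51.9 to 56.7%) against 33.5% (31.5 to 35.5%). With 2 matches the shares were 58.5% and 56.7%, and with 3 matches 70.0% and 73.4%.

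**Figure D4:**
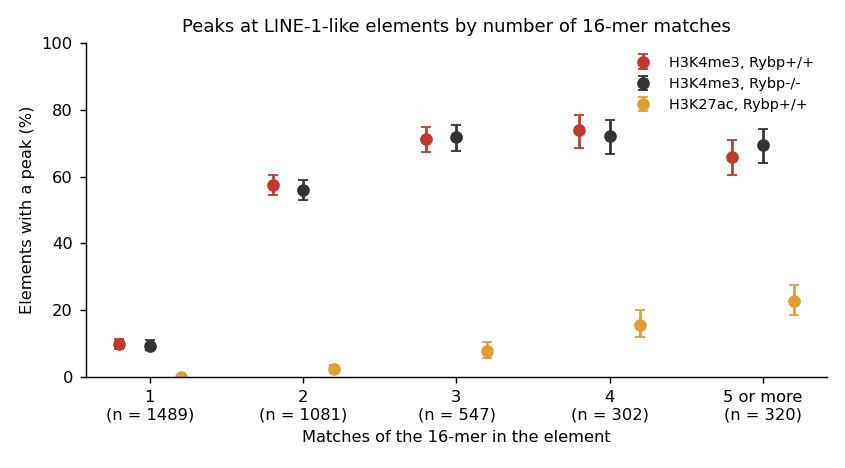
Share of LINE-1-like elements (%) with an H3K4me3 peak in Rybp+/+ or Rybp-/- ESCs, or an H3K27ac peak in Rybp+/+ ESCs, by number of 16-mer matches in the element. Points are shares and lines 95% Wilson intervals, and H3K4me3 in Rybp+/+ ESCs goes from 9.81% with 1 match to 73.8% with 4. Elements with more matches offer a longer stretch for overlap, and the part of this length was not tested.

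Elements on the X chromosome carried H3K4me3 less often. Among elements with 2 or more matches, 69 of 243 on X (28.4%, 23.1 to 34.4%) and 1376 of 2001 on autosomes (68.8%, 66.7 to 70.8%) had a peak in Rybp+/+ ESCs. Rybp-/- ESCs gave 27.6% and 68.5%. LINE-1-like members on X had a median fold enrichment of 4.47, against 5.88 on autosomes, and the other members had 5.06 and 4.30. Enrichment was lower on X also for peaks with RING1B only (11.2 against 14.5) and with both marks (28.5 against 37.9), and higher for H3K27ac only (17.6 against 6.09).

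Of the 10 strongest members, 8 had an annotated TSS inside. Lix1l had the highest fold enrichment, 45.1 in Rybp+/+ and 39.1 in Rybp-/- ESCs, over a peak of 2099 bp at chr3:96404562-96406660. It was followed by 2310001A20Rik (43.0), Rcan2 (42.6), an inhibitor of the phosphatase calcineurin, B4galt7 (39.1), a galactosyltransferase of the linker of glycosaminoglycan chains, Mon1a (35.7), 9530077C05Rik (34.1), a peak in Esyt2 543 bp from a TSS (34.1), Rabl2 (33.7), Tnfrsf22 (33.6) and a peak at Zbed3 2880 bp from a TSS (33.6). All 10 had an H3K4me3 peak in Rybp-/- ESCs, and 6 of them overlapped WDR5. The widest members lay at Ezr (3931 bp), Aim1l (3636 bp), Gse1 (3417 bp), between Kirrel2 and Nphs1 (3295 bp) and at Hspa5 (3112 bp), the gene of an abundant chaperone of the endoplasmic reticulum. None of these 5 overlapped WDR5, and all had a peak in Rybp-/- ESCs.

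Genes were assigned to members when a TSS lay inside a member and none inside another H3K4me3 peak. A TSS inside a member was found for 1092 genes, of which 334 also had a TSS in another peak, so 758 member genes remained, 587 of them protein coding. They were expressed at low levels. In the 2 Rybp+/+ libraries their median was 0.139 and 0.135 RPKM (counts scaled to exon length and library size, computed here), and 19.3% and 19.4% reached 1 RPKM. Genes only at peaks with H3K27ac had medians of 8.15 and 8.26 RPKM, genes only at peaks with RING1B 0.0926 and 0.0977, and genes only at peaks with both 6.12 and 6.14. Fewer cells that express a gene and less of its RNA per cell cannot be told apart in these bulk libraries.

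Libraries held 14512857 to 81049618 counts on genes. Rybp was 110 and 110 CPM (counts scaled to library size with edgeR's TMM factors) in Rybp+/+ and 24.8 and 25.0 in Rybp-/- libraries, fell by 1.25 on the log2 scale in shRybp and rose by 1.91 in Tet.RYBP with DOX, and Wdr5 fell by 2.55 in shWdr5. In the rTRS libraries labelled DOX, Rybp was not higher than in NTC (log2 fold change -0.15, adjusted p = 0.0762 by edgeR's quasi-likelihood test) and Stat3 rose by 0.20 (adjusted p = 0.0259), so directions in that comparison are those of the labels. Wdr5 also fell by 0.14 in Rybp-/-, 0.49 in shRybp, 0.24 in phase disruption and 0.38 in rTRS libraries labelled DOX. Its log2 fold change was 0.12 in TF-AA mutation and -0.01 in Tet.RYBP DOX libraries, and Rybp rose by 0.56 in shWdr5. Markers of ESCs summed to 3562 CPM or more in every library. Markers of fibroblasts, which can be present as feeder cells, summed to 62.2 and 62.3 CPM in Rybp+/+ and 126 and 130 in Rybp-/- libraries, with 7 of 8 higher, and 2 of these, Col1a1 and Pdgfrb, are themselves member genes. Markers of two-cell-like ESCs summed to 0.174 and 0.204 CPM in Rybp+/+ and 47.0 and 47.5 in Rybp-/- libraries, were higher also in shRybp, TF-AA mutation, phase disruption and Tet.RYBP DOX libraries, and were lower in shWdr5 and in rTRS libraries labelled DOX. The fibroblast sum was higher also in shRybp (22.3 to 23.9 against 35.8 to 36.5 CPM) and TF-AA mutation libraries (18.4 to 18.5 against 31.3 to 32.7), and lower in phase disruption libraries (438 to 449 against 357 to 385). Markers of primitive endoderm summed to 5.65 to 6.45 CPM in Rybp+/+ and 10.8 in Rybp-/- libraries, to 13.9 to 17.2 in shEV and 23.0 to 23.2 in shRybp, and to 9.44 to 9.60 in WT ESC and 15.9 to 16.3 in TF-AA mutation libraries. Their sums were lower in Tet.RYBP DOX (6.29 to 6.63 against 2.98 to 4.13) and in rTRS libraries labelled DOX (3.78 to 3.87 against 2.56 to 2.83). Their part in the results on member genes was not tested.

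Genes were called when the adjusted p of edgeR's quasi-likelihood test (Benjamini-Hochberg over all genes tested in that comparison) was under 0.05. In Rybp-/- ESCs, 488 of the 758 member genes passed edgeR's filter on low counts and 122 (25.0%) were called higher and 45 (9.22%) lower. Over all 16955 genes tested, 22.8% were called higher and 22.7% lower, so the share that rose was near the background and the share that fell was under it. The median log2 fold change was 0.13 in member genes and 0.00 in all genes tested. Genes only at RING1B peaks had 36.8% higher and 9.57% lower. Member genes were weaker than the rest, with a median of 0.934 CPM in Rybp+/+ libraries against 11.8 over all genes tested, and the part of their low counts in the calls was not tested. Of the 455 tested member genes whose H3K4me3 peak was found again in Rybp-/- ESCs, 25.7% rose, and of the 33 whose peak was not, 5 rose and 3 fell.

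Among the member genes that rose most were Aqp9, a channel for water and glycerol, Robo4, a receptor of endothelial cells, the transporter Abcc3, the tryptophan-degrading enzyme Ido2, Fkbp6, which is needed for meiosis in males, and the protease Klk10. Gm4840 had 0.0763 and 0 CPM in Rybp+/+ and 4.14 and 3.75 in Rybp-/- libraries (log2 fold change 6.65 ± 0.40 SE, adjusted p = 3.1e-15 by edgeR). Aqp9 had 0.0382 and 0.0249 CPM in Rybp+/+ and 1.56 and 1.26 in Rybp-/- libraries (5.42 ± 0.54, adjusted p = 5.3e-10). The fold of Gm4840 rests on 6 and 0 counts in the Rybp+/+ libraries, and without replicate 1 no fold can be given because the other library is at 0. These genes were close to silent in both Rybp+/+ libraries and the groups did not overlap. Fkbp6 had 0.903 and 0.857 CPM in Rybp+/+ and 4.68 and 3.96 in Rybp-/- libraries (2.29 ± 0.20, adjusted p = 2.2e-11). Klk10 went from 1.27 and 1.74 to 5.97 and 5.70 CPM. The other rises named by the rule, Robo4, Abcc3, Ido2, Tmem119, Scml4 and Efcab6, had log2 fold changes of 2.54, 2.52, 2.52, 2.24, 2.16 and 1.97, from levels under 0.41 CPM in every Rybp+/+ library. Efcab6 had 32 and 9 counts in the Rybp+/+ libraries. Its log2 fold change was 3.16 without Rybp+/+ replicate 1 and smaller than 1.97 without replicate 2.

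The largest fall was that of Fn3k. This kinase, which removes sugar from glycated proteins, had 1.48 and 1.26 CPM in Rybp+/+ and 0.263 and 0.260 in Rybp-/- libraries (-2.38 ± 0.37, adjusted p = 3.0e-06 by edgeR). Bhlha15, a transcription factor of secretory cells, went from 6.81 and 7.74 CPM to 1.91 and 2.87 (-1.61 ± 0.16). Nnat, an imprinted gene, went from 15.4 and 15.7 CPM to 7.10 and 6.54 (-1.19 ± 0.09). In each of these genes both Rybp-/- libraries were under both Rybp+/+ libraries. The others had log2 fold changes of -1.49 for Lhfpl5, -1.44 for Atcay, -1.32 for Srrm3, -1.22 for the slow troponin Tnnt1 and -1.15 for the synaptic vesicle protein Sv2a, and Rnf43, a ubiquitin ligase that removes Wnt receptors, and the helicase Ddx60 fell by 1.28 and 1.11. Lhfpl5, Srrm3 and Ddx60 were no longer called in 1 of the fits that left out a Rybp+/+ library, with log2 fold changes of -1.16 and -0.87 without replicate 1 for Lhfpl5 and Ddx60 and -0.94 without replicate 2 for Srrm3.

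In shRybp ESCs, 474 member genes were tested, of which 106 (22.4%) were called higher and 58 (12.2%) lower, against 26.8% and 26% of all genes tested. The share that rose was thus under the background here. The largest rises were those of Hdc, which makes histamine, Efcab6 and the laminin subunit Lamb3. Hdc had 0.809 and 1.11 CPM in shEV and 9.97 and 9.72 in shRybp libraries (3.36 ± 0.20, adjusted p = 9.5e-11 by edgeR), and Lamb3 went from 3.26 and 2.39 to 19.6 and 19.8 CPM. Falls were led by Atcay, from 11.7 and 9.73 to 2.72 and 2.12 CPM, Pirt, from 2.96 and 4.16 to 1.01 and 1.09 CPM, and Thrsp, with a log2 fold change of -1.67 that lost its call when shEV replicate 2 or shRybp replicate 2 was left out (-1.32 in both).

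Knockout and knockdown used other ESC lines and other control libraries. Of 433 member genes tested in both, 78 were called in both, 53 of them higher in both, 14 lower in both and 11 in opposite directions. Over all 15747 genes tested in both, 30.2% were called in both, 10.8% higher in both, 9.74% lower in both and 9.59% in opposite directions, and the shares of the member genes were 18.0%, 12.2%, 3.23% and 2.54%. The genes called in the same direction with the largest smaller change were Abcc3 (2.52 in the knockout and 2.26 in the knockdown), Gm4840 (6.65 and 2.03), Efcab6 (1.97 and 2.86), Hdc (1.89 and 3.36), Col22a1 (1.78 and 1.82), Tmem119 (2.24 and 1.49), Atcay (-1.44 and -2.14) and Zcchc12 (1.44 and 1.41). At the Abcc3 promoter the member at chr11:94253623-94254685 had a fold enrichment of 18.9 in Rybp+/+ and 17.1 in Rybp-/- ESCs. At Gm4840 the values were 3.40 and 8.91, and at Atcay 9.92 and 5.50. The peak lists have no replicates, so these enrichments were not tested against each other.

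Knockdown of Wdr5 gave the largest share of falls. Of 376 member genes tested, 154 (41.0%) were called lower and 65 (17.3%) higher, against 31.5% and 31.5% of all genes tested. The median log2 fold change was -0.38 in member genes and -0.01 in all genes tested. Genes only at H3K27ac peaks had 36.4% lower and 28.1% higher. Genes only at RING1B peaks had 29.0% lower and 33.4% higher, and genes only at peaks with both marks 32.0% and 34.1%. The shEV samples of this comparison are those of the Rybp knockdown, counted in another table. Markers of ESCs summed to 6981 to 7109 CPM in shEV and 5871 to 5908 in shWdr5 libraries (5 of 8 lower), those of primitive endoderm to 13.6 to 16.8 and 32.5 to 32.9 (4 of 6 higher) and those of two-cell-like ESCs to 37.6 to 39.4 and 14.4 to 15.3 (3 of 3 tested lower), and their part in the falls was not tested. Diras1, a small GTPase of neurons, had 4.72 and 4.00 CPM in shEV and 0.374 and 0.480 in shWdr5 libraries (-3.34 ± 0.32, adjusted p = 3.5e-09 by edgeR). Cend1, which takes neuronal precursors out of the cell cycle, went from 2.15 and 2.13 to 0.280 and 0.144 CPM. Nos3, the endothelial nitric oxide synthase, went from 5.28 and 7.24 to 0.888 and 0.672 CPM. Of the rises, Lmod1, an actin nucleator of smooth muscle, went from 1.40 and 0.709 to 9.72 and 9.60 CPM (3.17 ± 0.22, adjusted p = 1.7e-11), and Fam47e and the transporter Abcc6 had log2 fold changes of 2.97 and 2.95. None of these 6 genes had overlapping groups.

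In TF-AA mutation ESCs, 94 of 357 member genes tested (26.3%) were called higher and 33 (9.24%) lower, against 14.4% and 16.1% of all genes tested. The share that rose was above that over all genes tested, and it was 33.0% in genes only at RING1B peaks and 9.09% in genes only at H3K27ac peaks. It was 20.1% in genes with no TSS in an H3K4me3 peak, of which 6.90% fell. Asz1, a germ cell gene of the piRNA pathway, had 0 and 0 CPM in WT ESC libraries and 1.84 and 2.56 in TF-AA mutation libraries (adjusted p = 5.7e-07 by edgeR). It was at least 30.6-fold higher, set against a floor of 3 counts over the group. Gm4840 went from 0 and 0.198 to 2.78 and 1.81 CPM (4.48, resting on 0 and 4 counts in the WT ESC libraries, with no fold possible without replicate 2), and Hus1b, a copy of a DNA damage checkpoint gene, from 0.0478 and 0.0988 to 0.994 and 1.23. The strongest falls were those of Inhbe, which encodes an activin subunit and went from 1.29 and 1.78 to 0.0994 and 0.107 CPM, Rcan2, from 8.12 and 9.78 to 2.09 and 1.97 CPM, and Gm11635 (-2.02 ± 0.38). Lix1l, at the strongest member of all, went from 13.6 and 15.2 to 4.32 and 4.27 CPM (-1.74 ± 0.17, adjusted p = 1.9e-08), and fell by 1.58 in shRybp, by 1.24 in shWdr5, by 0.78 in rTRS libraries labelled DOX and by 0.43 in Rybp-/- ESCs, with values of -0.05 in phase disruption and -0.11 in RYBP overexpression that were not called.

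In RYBP phase disruption ESCs, 48 of 345 member genes tested (13.9%) were called higher and 40 (11.6%) lower, against 16.1% and 17% of all genes tested. The share that fell was under the background (95% Wilson interval 8.63 to 15.4%), while the interval of the share that rose (10.7 to 18.0%) held it. H19, an imprinted non-coding RNA, had 12.8 and 13.4 CPM in WT.RYBP and 259 and 254 in phase disruption libraries (4.29 ± 0.07, adjusted p = 1.9e-31 by edgeR). Fkbp6 went from 0.252 and 0.437 to 3.19 and 4.10 CPM and Gm7102 from 0.252 and 0.187 to 1.77 and 2.42. The falls were those of Abca8b (-2.51), Pamr1 (-1.70) and Prss35 (-1.62), and Pamr1 lost its call in every fit that left out a library (-1.87 to -1.50) and Prss35 in 2 of these fits (-1.40 without WT.RYBP replicate 2 and -1.11 without phase disruption replicate 2). Rybp itself had 749 and 753 CPM in WT.RYBP and 662 and 626 in phase disruption libraries.

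RYBP overexpression in J1 ESCs gave few calls. Of 378 member genes tested, 8 (2.12%) were called higher and 12 (3.17%) lower, against 3.63% and 2.39% of all genes tested, and without Tet.RYBP DOX replicate 1 the calls went from 20 to 11. Zscan5b, Fmr1nb and Gstm2 rose by 2.04, 1.35 and 0.92 on the log2 scale, and Scn9a, a sodium channel of sensory neurons, Atcay and Ociad2 fell by 1.70, 1.09 and 1.08. Atcay went from 12.0 and 10.5 to 4.74 and 5.77 CPM (adjusted p = 8.3e-05 by edgeR). Zscan5b was not called in any fit that left out a library (1.75 to 2.28), Gstm2 was not called without vehicle replicate 2 (0.47, against 1.58 without vehicle replicate 1) and Scn9a not without DOX replicate 1 (-1.19).

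In rTRS ESCs labelled DOX, 87 of 478 member genes tested (18.2%) were called higher and 77 (16.1%) lower, against 23% and 20.4% of all genes tested. Cxx1c went from 0.117 and 0.149 to 4.47 and 4.81 CPM (5.09 ± 0.35, adjusted p = 1.4e-07 by edgeR). Tagln, an actin-binding protein of smooth muscle, went from 6.42 and 5.73 to 124 and 111 CPM, and Cda, a cytidine deaminase, from 0.333 and 0.316 to 3.76 and 4.22. The largest falls were those of Gm5134, from 1.21 and 1.6 to 0.154 and 0.0196 CPM (-3.97, and -6.00 without DOX replicate 1, which rests on 1 count), Pirt (-2.60 ± 0.37) and Ccdc141 (-2.13 ± 0.27). Markers of ESCs summed to 5919 to 6152 CPM in NTC and 3562 to 3752 in DOX libraries, with 6 of 8 lower, and their part in the counts of member genes was not tested.

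**Figure D5:**
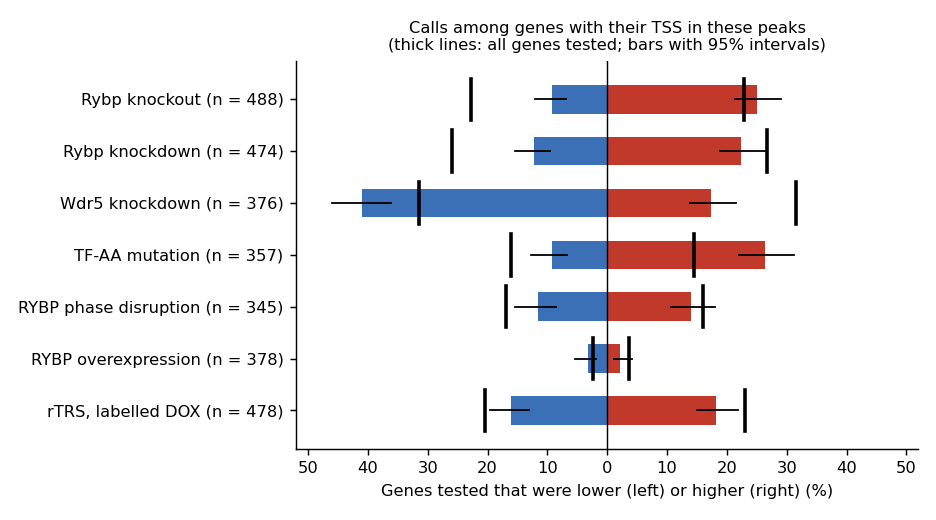
Share of the tested member genes (%) called higher (right) or lower (left) by edgeR in each of the 7 comparisons, with 95% Wilson intervals and, as thick lines, the shares over all genes tested. Falls in the Wdr5 knockdown (41.0%) and rises in the TF-AA mutation (26.3%) lie above the thick lines at 31.5% and 14.4%.

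The gene lists held between 0 and 12 member genes each. Of all 37310 annotated genes, 758 (2.03%) were member genes, against 2.94% of germ cell and meiosis genes, 3.19% of zinc finger genes and 2.47% of ribosomal protein genes. No lineage regulator (0 of 20), pluripotency gene (0 of 13) or histone gene (0 of 70) was among them. Of 1688 olfactory and vomeronasal receptors, 3 were. Genes with a TSS at peaks with H3K27ac or RING1B were left out by the rule. Of the 20 lineage regulators, 16 were only at RING1B peaks. Lists this short can also hold no member gene by their size, so the counts of 0 are no result about these genes. Of 34 germ cell and meiosis genes, 13 were only at RING1B peaks, 13 only at peaks with both marks, and 1, Asz1, was a member gene, with a fold enrichment of 2.82 at chr6:18058781-18059148 and no peak in Rybp-/- ESCs. Asz1 was not tested in the Rybp knockout, had an adjusted p of 0.0813 in the knockdown by edgeR, and was lower in rTRS libraries labelled DOX (0.646 and 0.242 to 0.0770 and 0.0196 CPM, adjusted p = 0.0168).

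Of 25 imprinted genes, H19 and Nnat were member genes. H19 had 46.7 and 50 CPM in Rybp+/+ and 97.8 and 100.9 in Rybp-/- libraries (1.04 ± 0.04, adjusted p = 4.4e-19 by edgeR), and its peak at chr7:149762557-149762973 had a fold enrichment of 2.86 and 7.33. It rose by 2.07 in shRybp and by 1.70 in rTRS libraries labelled DOX and fell by 2.40 in TF-AA mutation ESCs, from levels under 1 CPM in all control libraries of those 3 comparisons. Nnat fell in the Rybp knockout (-1.19), the Wdr5 knockdown (-0.76) and the TF-AA mutation (-1.16) and rose in rTRS libraries labelled DOX (1.63 ± 0.18, 3.70 and 3.37 to 12.7 and 9.27 CPM). H19 and Nnat were both called in 3 comparisons, with opposite directions in the Rybp knockout, falls of both in the TF-AA mutation and rises of both in rTRS libraries labelled DOX.

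Zinc finger genes gave 12 member genes of 376 (3.19%), 4 of them (Zfp455, Zfp456, Zfp457 and Zfp458) close together on chromosome 13. Of the 8 tested in the Wdr5 knockdown, 5 fell and 1 rose, with a median log2 fold change of -1.26. Of all 346 zinc finger genes tested there, 118 fell and 71 rose, with a median of -0.12. Zfp300 went from 0.795 and 0.607 to 0.0935 and 0 CPM (-3.73 ± 0.82, adjusted p = 0.00041 by edgeR), Zfp773 from 2.57 and 1.11 to 0.607 and 0.480, Zfp455 from 0.701 and 0.759 to 0.0935 and 0.336, Zfp454 from 3.51 and 2.43 to 1.07 and 1.15 and Zfp764 from 7.39 and 6.63 to 3.41 and 3.07. Zfp456 rose from 2.62 and 2.73 to 5.05 and 4.18 CPM. In the Rybp knockout 1 of 10 tested rose and 1 fell, and of all 354 zinc finger genes tested 67 rose and 81 fell. Near-identical copies among zinc finger genes can share reads, so single values are uncertain. Ribosomal protein genes gave 6 member genes of 243, 4 of them pseudogenes, and miRNA and small nucleolar RNA genes 4 and 1.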

How the data were processed

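ChIP-seq and RNA-seq of mouse ESCs were used as deposited, with 14 peak lists and 26 RNA libraries of the 96 samples of the series. Reads were trimmed with Trim Galore and, for RNA, aligned to mm9 with STAR and counted with HTSeq, per the submitters' processing notes and methods. Peaks were called by the authors with MACS2 against input on merged replicates (RING1B in shEV and shStat3 and STAT3 in R7.15 ESCs on 1 library each), and the deposited lists give the fold enrichment (a ratio), the -log10 of q values and a score for each interval. The deposited gene counts are whole reads without normalization. In the rTRS counts 1 of the DOX columns carries another prefix than the rest and was matched by its replicate number. The control columns of the RYBP overexpression counts are named NTC and were read as vehicle. Reads not assigned to a gene (13.7 to 58.5% of a library, absent from the RYBP overexpression table) were left out.

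Intervals were compared with Python 3.11.15, with an overlap of at least 1 bp, and sequences, TSSs and genes came from the NCBIM37 (mm9) genome and the GENCODE M1 annotation. Counts were tested with edgeR 4.0.16 (TMM, filterByExpr, quasi-likelihood test, Benjamini-Hochberg adjustment), and the script was tested on simulated data. DESeq2 1.42.0, other size factors, no filter, a replicate block, left-out libraries and other rules for members were the alternatives. The members and gene lists were chosen with earlier results of these data known. Named genes were the 10 largest rises and falls in the Rybp knockout and the 3 in each other comparison with at least 1 CPM in a group, the 8 that changed the same way in knockout and knockdown by the largest smaller change, the 10 strongest and 5 widest members, and list genes at members. The strand setting of the counting is not given in the sources used here.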

Additional observations from a re-analysis of the deposited data

Results flagged for a closer look

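Robo4 and Rnf43 moved in opposite directions after knockout and knockdown of Rybp. The log2 fold change of Robo4 was 2.54 in Rybp-/- ESCs of the R7.15 line and -0.53 in shRybp ESCs of the R1 line. That of Rnf43 was -1.28 and 1.82. In each gene both treated libraries stood on one side of both control libraries in the knockout and on the other side in the knockdown. The difference between the comparisons was not tested, and ESC line and method of removal cannot be told apart.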

How the results depend on the processing

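Calls of member genes were refitted under each alternative. With a log2 fold change over 1 required as well, the calls fell from 167 to 85 in the Rybp knockout, from 164 to 89 in the Rybp knockdown, from 219 to 137 in the Wdr5 knockdown, from 88 to 54 in phase disruption, from 20 to 7 in RYBP overexpression and from 164 to 106 in rTRS. DESeq2 gave 81 calls instead of 127 in TF-AA mutation, 37 in phase disruption and 10 in RYBP overexpression, and no filter on low counts gave 55 in phase disruption. Leaving out 1 library gave 11 to 25 calls in RYBP overexpression. The labels do not tie same-numbered libraries of different groups to each other, and the correlation of their deviations was -0.00 to 0.06 in 5 comparisons, 0.17 in TF-AA mutation and 0.26 in rTRS, so no pairing was assumed. With the replicate block the calls were 169, 175, 222, 136, 89, 27 and 178 in the order of the report. The 56 results for the largest rises and falls kept their call in 424 of 448 refits and lost it in 24, with no turn of direction in these refits. Values of genes named only for their peak, list or shared direction were not refitted.

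Shares of members moved with the rule. With -log10 q of at least 5, H3K4me3 in Rybp-/- went from 76.3% to 86.2%, WDR5 from 1.39% to 1.76%, STAT3 with DOX from 19.2% to 21.0%, shStat3 RING1B from 2.94% to 3.46% and TSS within 1 kb from 17.1% to 18.0%. With no mark within 1 kb, H3K4me3 was 77.9% and TSS 16.4%. With no overlap with any of the 4 RING1B lists, the shares were 74.4%, 1.04%, 15.2%, 0 (by construction) and 15.4%. An overlap of at least 0.5 of the shorter peak gave 74.3% for H3K4me3 and 17.4% for STAT3, and a TSS window of 2.5 kb gave 24.5%. The cause of these moves was not tested. Without members that hold a LINE-1 16-mer, chosen after seeing the data, the shares were 74.2%, 1.64%, 22.4%, 3.42% and 20.0%.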
